A study of Rattus norvegicus with 12 samples.

Results

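TRPM and TRPC channels are cation channels of the transient receptor potential (TRP) superfamily, and 7 of their genes, Trpm2, Trpm3, Trpm4, Trpm5, Trpm7, Trpc1 and Trpc4, were followed in INS1E cells, a rat beta-cell line that makes and secretes insulin. The 7 genes were picked by name, with the results of these same arrays already known, from 18166 genes that had a single symbol and a gene-level value. Each of the 7 had 1 gene-level transcript cluster, so no choice between several was needed, and together they had 155 exon-level probe sets. The choice used the differences between the clones, so the members' levels and differences are given as a description and carry no p-value.

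INS1E clones carrying human islet amyloid polypeptide (hIAPP), rat islet amyloid polypeptide (rIAPP) or the empty vector pcDNA3 (control) were compared. IAPP, also called amylin, is co-secreted with insulin, and human but not rat IAPP forms amyloid fibrils. All 3 clones, the control included, are stable transfectants kept under geneticin selection at 11.1 mM glucose and harvested after 3 days. Total RNA from each was hybridised to 2 Affymetrix rat gene arrays, lettered a and b. Each line is 1 clone, so an effect of the transgene cannot be told apart from a difference between clones. No source used here says that a and b were separate cultures, so errors and p-values cover the spread between 2 samples of a clone, which may be technical. In RNA from a whole culture, fewer cells that express a gene and less RNA per cell cannot be told apart.

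TRP channels open in response to chemical, thermal or receptor signals and let cations into the cell. In beta cells such inward current moves the membrane toward the voltage at which calcium channels open, adding to the depolarisation set by ATP-sensitive potassium channels, and calcium entry then drives insulin release. Trpm2 encodes a calcium-permeable channel gated by intracellular ADP-ribose and calcium and brought into play by oxidative stress. Trpm3 encodes a calcium-permeable channel activated by the steroid pregnenolone sulphate. Trpm4 and Trpm5 encode channels that calcium opens but that carry monovalent cations. TRPM5 is also part of the sweet, bitter and umami taste cascade. Trpm7 encodes a channel fused to a kinase that serves magnesium and zinc uptake. Trpc1 and Trpc4 encode channels opened downstream of phospholipase C, and TRPC1 can assemble with TRPC4.

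Trpm2, Trpm5 and Trpc4 carried the largest differences from control at gene or exon level, and their promoter windows are shown for that reason. Each window is the RefSeq sequence on build GRCr8 running 250 bases before to 50 after the gene's start, read 5′ to 3′ on the gene's strand. It lies at chr20:10704222-10704521 on the plus strand for Trpm2, at chr1:207707039-207707338 on the minus strand for Trpm5 and at chr2:140501046-140501345 on the plus strand for Trpc4. Capitals mark the GC box GGGCGG, the CCAAT box CCAAT and the TATA box TATAAA, searched on both strands.
Trpm2: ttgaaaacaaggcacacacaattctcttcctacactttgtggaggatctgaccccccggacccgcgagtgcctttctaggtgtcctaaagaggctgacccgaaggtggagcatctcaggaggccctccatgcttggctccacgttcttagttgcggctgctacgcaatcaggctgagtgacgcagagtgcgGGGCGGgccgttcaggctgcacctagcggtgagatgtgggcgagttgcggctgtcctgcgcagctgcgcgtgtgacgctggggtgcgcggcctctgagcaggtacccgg
Trpm5: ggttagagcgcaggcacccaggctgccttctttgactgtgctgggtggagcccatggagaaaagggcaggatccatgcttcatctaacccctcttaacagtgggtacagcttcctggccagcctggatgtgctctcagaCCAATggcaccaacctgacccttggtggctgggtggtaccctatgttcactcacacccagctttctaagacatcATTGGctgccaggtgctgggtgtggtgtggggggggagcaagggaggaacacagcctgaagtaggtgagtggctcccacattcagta
Trpc4: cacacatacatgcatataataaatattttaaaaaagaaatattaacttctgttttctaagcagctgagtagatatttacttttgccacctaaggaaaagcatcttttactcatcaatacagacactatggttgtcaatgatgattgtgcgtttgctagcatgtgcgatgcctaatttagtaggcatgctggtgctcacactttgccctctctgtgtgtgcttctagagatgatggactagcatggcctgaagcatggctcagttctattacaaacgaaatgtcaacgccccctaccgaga
Trpm2's window held 1 GC box and 21 CpG dinucleotides, with 61.7% G or C. Trpm5's held 2 CCAAT boxes, 1 of them on the opposite strand, and 1 CpG, with 57.0% G or C. None of the 3 motifs was in Trpc4's window, which held 5 CpG dinucleotides and 39.7% G or C. Over the windows of all 33469 promoters the medians were 7 CpG dinucleotides and 51.7% G or C. A GC box was in 33.1% of those windows, a CCAAT box in 37.5% and a TATA box in 14.2%. The search also took in, without capitals, the cyclic AMP response element TGACGTCA, present in none of the 3 windows and in 1.83% of all, and the E box CANNTG, present in all 3 and in 72.1% of all. These are matches of letters and say nothing of binding. The starts are those of the annotation, and whether transcription begins there in these cells was not tested, so a window may not be a promoter in use.

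Arrays of the same clone were close to each other. The median SD between the 2 arrays of a clone was 0.0478 in hIAPP, 0.0390 in rIAPP and 0.0406 in control at gene level, and 0.119 in hIAPP, 0.107 in rIAPP and 0.111 in control at exon level (log2). Iapp itself was near the top of the scale in every clone, with means of 13.81 in hIAPP, 13.91 in rIAPP and 13.74 in control, and neither difference from control passed the test (limma adjusted p = 0.406 and 0.0507). The row is that of the rat gene, and how far it detects RNA of either transgene was not tested. Of 14 listed beta-cell markers 10 were measured, and none lay below the lower quartile of all transcript clusters in any clone. By limma's test (adjusted p under 0.05) 2 of the 10 rose and 3 fell in hIAPP, where 10.1% of all genes rose and 8.93% fell. In rIAPP 2 rose and 2 fell, where 8.7% and 7.3% of all genes did. Ins1 fell by 0.57 in hIAPP and by 0.51 in rIAPP, and Ins2 fell by 0.74 and by 0.64 (limma adjusted p = 0.00243, 0.00565, 0.0131 and 0.0269). Nkx6-1 fell by 0.42 in hIAPP (limma adjusted p = 0.00377). Mafa rose by 0.21 in hIAPP and by 0.35 in rIAPP (limma adjusted p = 0.0477 and 0.00758). Slc30a8 rose by 0.24 in hIAPP and Slc2a2 by 0.19 in rIAPP (limma adjusted p = 0.0157 and 0.0470). Of 20 measured markers of other cell types, 6 (Amy2a3, Cftr, Cpa1, Itgam, Prss1 and Ptprc) lay below that quartile in all 3 clones. By the same test 2 of the 20 rose and 1 fell in hIAPP, and 1 rose and 2 fell in rIAPP, beside the same shares of all genes. The alpha-cell hormone gene Gcg was bright throughout, at 14.11 in hIAPP, 13.93 in rIAPP and 13.94 in control. The summed linear level of the 20 markers, set mostly by Gcg, was 20940 to 20979 in hIAPP, 18539 to 19044 in rIAPP and 19135 to 19183 in control. What part marker genes have in the channel differences was not tested.

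At gene level the members divided into those that differed strongly from control in both transfected clones, Trpm2 upward and Trpc4 downward, those that stood apart mainly in rIAPP, Trpm3 downward and Trpm5 upward, and those within 0.15 of control in both, Trpm4, Trpm7 and Trpc1. All values below are log2 RMA values as deposited, and differences are means of the first clone minus means of the second, n = 2 arrays each. A gene counts as called when limma, fitted to all 18166 genes, gave a Benjamini-Hochberg adjusted p under 0.05. In hIAPP minus control 1 member was called higher, Trpm2, against 10.1% of all genes, and 1 lower, Trpc4, against 8.93%. In rIAPP minus control Trpm2 and Trpm5 were called higher, against 8.7% of all genes, and Trpm3 and Trpc4 lower, against 7.3%. In hIAPP minus rIAPP Trpm2, Trpm3 and Trpc4 were called higher, against 6.11% of all genes, and Trpm5 lower, against 5.56%. The members were chosen with these contrasts known, so nothing is read from the counts. Both contrasts against control use the same 2 control arrays. Arrays without overlap at gene level were common. Both hIAPP arrays were above both control arrays in 27.2% of all genes and below in 30.6%. For rIAPP against control the shares were 31.3% and 29.2%, and for hIAPP against rIAPP 24.2% and 28.7%. These shares stand beside each gene-level statement on overlap below.

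**Figure D1:**
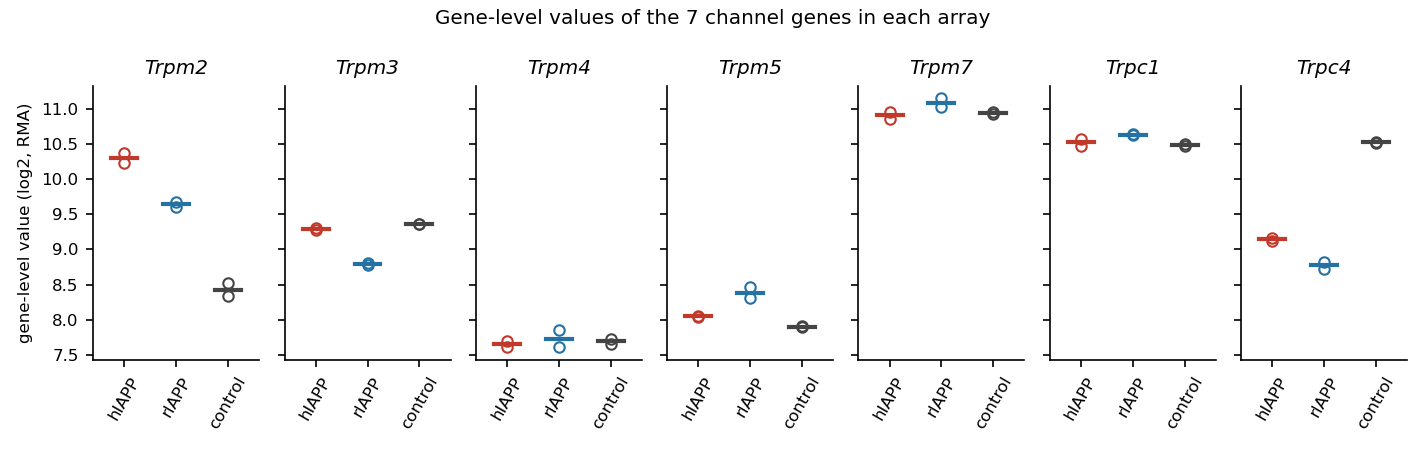
Gene-level values (log2, RMA; vertical axis) of the 7 channel genes, 1 panel per gene, in the hIAPP, rIAPP and control clones; circles are the 2 arrays of a clone and bars their mean. Trpm2 runs down from hIAPP through rIAPP to control, Trpc4 is highest in control at 10.51 and 10.53, Trpm3 is lowest in rIAPP and Trpm5 highest there, while the circles of Trpm4 overlap; heights are not comparable between panels.

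Trpm2, the ADP-ribose-gated channel, was higher than control in both transfected clones. Its gene-level values were 10.36 and 10.23 in hIAPP, 9.61 and 9.68 in rIAPP, and 8.52 and 8.33 in control. No array of one clone overlapped those of another, and the order was hIAPP, then rIAPP, then control. The difference was +1.87 in hIAPP minus control, or 3.65-fold, and +1.22 in rIAPP minus control, or 2.32-fold (SE 0.0774 for each). Only 23 of the 18166 genes, Trpm2 included, had a difference of at least that size in hIAPP minus control, and 66 did in rIAPP minus control. Between the transfected clones Trpm2 was 0.65 higher in hIAPP, or 1.57-fold.

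The probe sets of Trpm2 differed widely among themselves. Of its 27 probe sets, 25 had both arrays of the transfected clone above both control arrays in hIAPP, where 25.4% of all probe sets did, and 25 did in rIAPP, where 27.7% of all did. The choice of Trpm2 used these contrasts, so nothing is read from the counts. Differences ran between −0.02 and 4.45 in hIAPP minus control, with a median of 1.98, and between −0.07 and 3.72 in rIAPP minus control, with a median of 1.31. The gene-level difference lay within 0.12 of the median probe set in hIAPP and within 0.09 in rIAPP. The widest difference was at probe set number 14 in the array's numbering of the gene, with values of 10.19 and 9.83 in hIAPP, 9.27 and 9.30 in rIAPP, and 6.02 and 5.10 in control. Among probe sets with a mean at or above the exon-level median, number 15 differed most, at 11.58 and 11.87 in hIAPP, 10.95 and 11.15 in rIAPP, and 8.44 and 8.73 in control. That gave +3.14 and +2.47 against control (SE 0.169). Number 8 was level, at 12.67 and 12.69 in hIAPP, 12.66 and 12.61 in rIAPP, and 12.67 and 12.74 in control, so 1 probe set of Trpm2 was bright in every clone and showed none of the gene's difference. Whether that probe set also picks up other RNA, or is saturated, was not tested.

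Trpm2's differences were larger at probe sets that were dim in control. The 22 probe sets with a control mean under the exon-level median of 9.22 had median differences of 2.01 in hIAPP and 1.42 in rIAPP. The 5 at or above it had medians of 1.42 and 0.79. The split uses the control arrays that also enter the differences, and it is given as a description. The SD of the 27 differences was 1.09 in hIAPP minus control, and of 7067 genes with at least 10 probe sets 6, Trpm2 included, had an SD that large, with a median of 0.247 over those genes. In rIAPP minus control the SD was 0.921, reached by 13 genes. Between the transfected clones the probe sets of Trpm2 were more even: 23 of 27 were above in hIAPP (20.4% of all probe sets), the range was −0.32 to 1.21, and the SD of 0.337 was reached by 1309 genes. Number 16 had the largest such difference among brighter probe sets, 0.96 (SE 0.138), at 11.40 and 11.66 in hIAPP against 10.68 and 10.47 in rIAPP.

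Trpc4, the phospholipase C-coupled channel, was lower in both transfected clones. Its gene-level values were 9.17 and 9.12 in hIAPP, 8.72 and 8.82 in rIAPP, and 10.51 and 10.53 in control. The arrays of the 3 clones did not overlap, with control highest and rIAPP lowest. The difference was −1.38 in hIAPP minus control, or 0.384 of the control level, and −1.75 in rIAPP minus control, or 0.297 of it (SE 0.0542 for each). A difference at least as large in size was found in 65 genes in hIAPP minus control and in 20 in rIAPP minus control, Trpc4 included. hIAPP exceeded rIAPP by 0.37.

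Trpc4 differed from control at every one of its probe sets. In both transfected clones all 13 had both arrays below both control arrays, beside 23.7% of all probe sets in hIAPP and 22.4% in rIAPP, with differences of −2.13 to −0.96 in hIAPP minus control and −2.63 to −1.33 in rIAPP minus control. Their medians, −1.39 and −1.76, were within 0.0138 of the gene-level differences. The widest was probe set number 3, at 7.15 and 7.26 in hIAPP, 6.78 and 6.61 in rIAPP, and 9.26 and 9.40 in control. The narrowest was number 12, at 9.46 and 9.12 in hIAPP, 8.68 and 9.15 in rIAPP, and 10.17 and 10.32 in control. Even there the control arrays stood above the other 4. Among the probe sets at or above the exon-level median, number 4 differed most in hIAPP minus control, at −1.69 (SE 0.170), and number 8 most in rIAPP minus control, at −2.02 (SE 0.104). Between the transfected clones the brighter probe sets ran from number 4, at 0.16, to number 6, at 0.50. The SD of the 13 differences was 0.308 in hIAPP and 0.326 in rIAPP, reached by 2190 and 2095 of the 7067 genes.

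**Figure D2:**
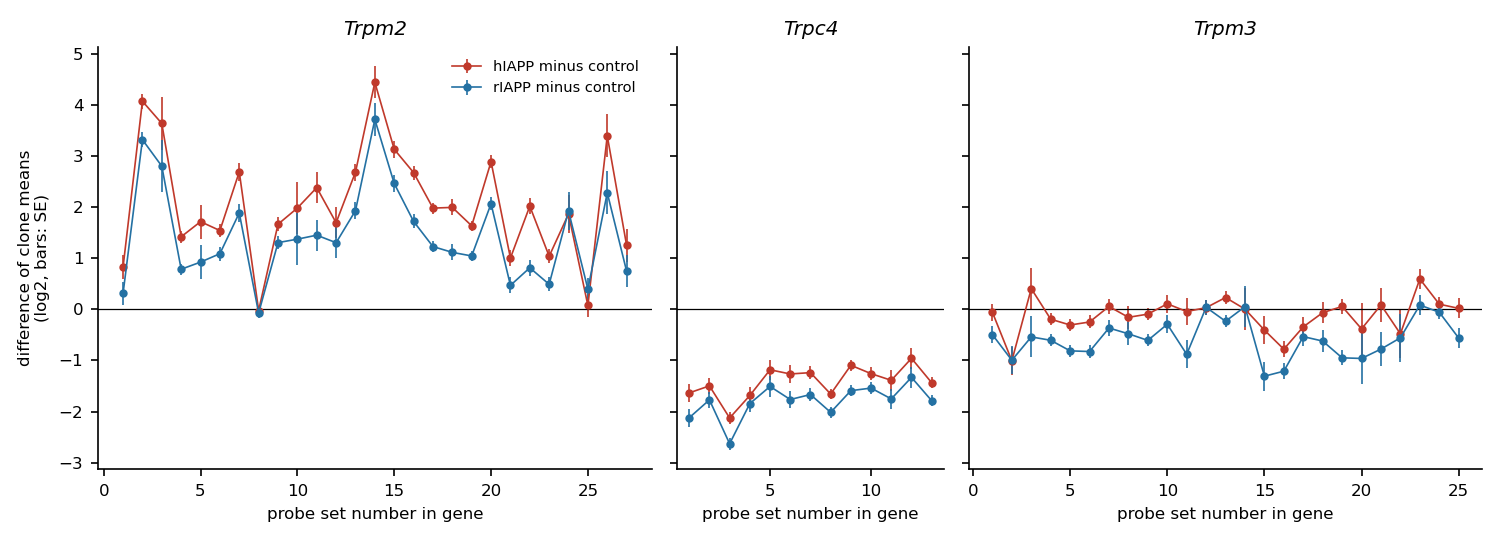
Difference of clone means at each exon-level probe set (log2, vertical axis; bars are the SE) against its number in the gene for Trpm2, Trpc4 and Trpm3, as hIAPP minus control and rIAPP minus control. Trpm2 reaches 4.45 and 3.72 at number 14 and is near 0 at number 8, every Trpc4 probe set is below 0, and most Trpm3 probe sets are below 0 in rIAPP and near 0 in hIAPP.

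Trpm3, the steroid-gated calcium-permeable channel, was lower in rIAPP than in either of the other clones. Its gene-level values were 9.30 and 9.28 in hIAPP, 8.80 and 8.78 in rIAPP, and 9.36 and 9.37 in control. The arrays of the 3 clones did not overlap, and hIAPP and control were close. The difference was −0.07 in hIAPP minus control and −0.57 in rIAPP minus control, or 0.672 of the control level, and hIAPP exceeded rIAPP by 0.50 (SE 0.0460). At exon level 18 of 25 probe sets were below control in rIAPP without overlap, none was above and 7 overlapped, while in hIAPP 6 were below, 2 above and 17 overlapped. Over all probe sets 22.4% were below control in rIAPP, and in hIAPP 23.7% were below and 25.4% above. Against each other, 19 of 25 were above in hIAPP, beside 20.4% of all probe sets. The median differences were −0.06 in hIAPP minus control and −0.56 in rIAPP minus control. Of the brighter probe sets, number 6 had the lowest difference in rIAPP, −0.82 (SE 0.127), at 10.29 and 10.18 in hIAPP, 9.53 and 9.78 in rIAPP, and 10.47 and 10.49 in control. Number 23 had the highest, +0.60 in hIAPP and +0.09 in rIAPP (SE 0.201), with control arrays at 8.94 and 9.49. Among the brighter probe sets number 17 was lowest in hIAPP, at −0.34 (SE 0.187), and between the transfected clones number 25 differed most, at 0.58, and number 12 least, at −0.01. Over all 25 the difference between these clones reached 1.01, at number 19. Trpm3's calls in rIAPP rest on the gene-level summary: with the gene taken as the median of its exon-level probe sets the difference was −0.36 in rIAPP minus control and 0.35 in hIAPP minus rIAPP, and neither was called.

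Trpm3 contains the gene of a microRNA, Mir204, whose product is known to repress the beta-cell transcription factor gene Mafa. Its mature product is shown because the array has a row for its precursor next to that of its host. The RefSeq sequence of rno-miR-204-5p lies at chr1:229743493-229743514 on the plus strand of GRCr8, inside Trpm3, and capitals mark the seed, bases 2 to 8.
rno-miR-204-5p: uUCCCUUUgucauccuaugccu
The Mir204 row was dim, at 5.50 and 5.58 in hIAPP, 5.52 and 5.44 in rIAPP, and 5.84 and 5.63 in control. The difference was −0.20 in hIAPP minus control and −0.26 in rIAPP minus control (SE 0.0765), and neither passed the test (limma adjusted p = 0.126 and 0.0629). The row is no measure of the mature microRNA.

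Trpm5, the calcium-activated monovalent channel, differed at some of its probe sets far more than its gene-level value shows. The gene-level values were 8.04 and 8.06 in hIAPP, 8.46 and 8.31 in rIAPP, and 7.91 and 7.90 in control, without overlap and with rIAPP highest. The difference was +0.14 in hIAPP minus control and +0.48, or 1.40-fold, in rIAPP minus control, and hIAPP was lower than rIAPP by 0.34 (hIAPP minus rIAPP −0.34; SE 0.0602). By size, 589 of the 18166 genes differed at least as much as Trpm5 in rIAPP minus control. The call in hIAPP minus rIAPP was lost when hIAPP array a, hIAPP array b or rIAPP array a was left out, with a difference of −0.26 without rIAPP array a.

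The first 5 of its 24 probe sets in the array's numbering differed from control more, on average, than the others. Averaged over these 5, the exon-level value was 10.51 and 10.43 in hIAPP, 12.32 and 12.24 in rIAPP, and 9.20 and 9.40 in control. The clones were well apart, with rIAPP 2.98 above control, or 7.88-fold, hIAPP 1.17 above control, or 2.25-fold, and hIAPP minus rIAPP at −1.81. Each of the 5 had no overlap between any pair of clones. Over all probe sets 25.4% were above control in hIAPP without overlap, 27.7% were in rIAPP, and 23.3% were lower in hIAPP than in rIAPP. Differences of the 5 ran between 0.81 and 1.69 in hIAPP minus control and between 2.37 and 4.13 in rIAPP minus control. The set of 5 was drawn after these values were seen, so the split is a description. No source used here says whether the numbers follow the exons along the gene, so the 5 are consecutive in number only.

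Probe set number 3 had the largest difference, at 9.33 and 8.86 in hIAPP, 11.65 and 11.42 in rIAPP, and 7.08 and 7.73 in control (+1.69 and +4.13 against control, −2.44 in hIAPP minus rIAPP, SE 0.271). Number 1 stood at 11.32 and 11.34 in hIAPP, 12.96 and 12.94 in rIAPP, and 10.36 and 10.69 in control, a difference of 2.43 in rIAPP. Both follow the order rIAPP, hIAPP, control. Numbers 6 to 9 kept a smaller difference, with means of 8.17 and 8.24 in hIAPP, 8.51 and 8.61 in rIAPP, and 7.63 and 7.74 in control, or +0.52 and +0.87 against control. The other 15 probe sets averaged 7.84 and 7.74 in hIAPP, 7.96 and 7.95 in rIAPP, and 7.92 and 7.87 in control, or −0.11 and +0.06. Of those 15, only numbers 13, 14 and 19 had a mean at or above the exon-level median, and numbers 6 to 9 were all below it. Number 13 barely differed (hIAPP minus rIAPP +0.21), at 10.51 and 10.59 in hIAPP, 10.27 and 10.40 in rIAPP, and 10.38 and 10.41 in control. Number 19 had differences of −0.32 in hIAPP and −0.31 in rIAPP (SE 0.157), with 9.42 and 9.56 in hIAPP, 9.37 and 9.63 in rIAPP, and 9.66 and 9.95 in control.

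**Figure D3:**
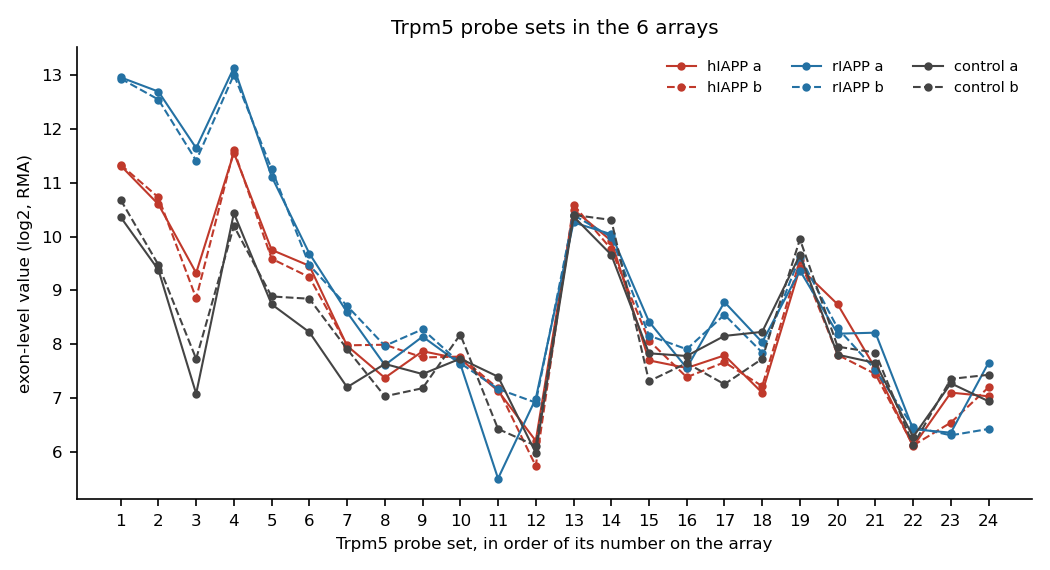
Exon-level values (log2, RMA; vertical axis) of the 24 Trpm5 probe sets in order of their number on the array, 1 line per array for the hIAPP, rIAPP and control clones; heights of different probe sets are not comparable. The lines of the 3 clones are apart at numbers 1 to 5, with rIAPP highest and control lowest, while over the other 19 differences from control stay between −0.82 and 0.82 in hIAPP and between −0.98 and 1.10 in rIAPP.

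Few genes were as uneven as Trpm5 in rIAPP minus control. Its choice used these contrasts, so its place among genes, like that of the other members, is a description. The SD of Trpm5's 24 differences in rIAPP minus control was 1.29, and of the 7067 genes with at least 10 probe sets 2, Trpm5 being one of them, reached it, while the median gene had 0.258. In hIAPP minus control its SD was 0.606, reached by 103 genes, and in hIAPP minus rIAPP 0.797, reached by 14. A summary over all 24 probe sets put Trpm5 at a median difference of 0.41 and a mean difference of 0.81 in rIAPP minus control, on either side of the gene-level 0.48. Only 8 of the 24, the first 5 among them, had a mean at or above the exon-level median. Over these 8 the median difference was 2.40 in rIAPP minus control and 0.83 in hIAPP minus control. Whether the dim probe sets could show a difference was not tested. No count of transcripts or isoforms was made, and the exon structure behind the numbers was not analysed here.

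The remaining members differed little at gene level. Trpm4, the other calcium-activated monovalent channel, had gene-level values of 7.69 and 7.61 in hIAPP, 7.61 and 7.85 in rIAPP, and 7.66 and 7.73 in control, which overlap in every pair of clones. Its differences were −0.04 and +0.04 against control (SE 0.0826). Of its 20 probe sets, 13 overlapped with control in hIAPP and 11 in rIAPP. In hIAPP 3 were above and 4 below, beside 25.4% and 23.7% of all probe sets. In rIAPP 5 were above and 4 below, beside 27.7% and 22.4%. Number 9 was above control in both clones, at 9.14 and 9.001 in hIAPP, 9.30 and 9.24 in rIAPP, and 8.41 and 8.29 in control, and was the 1 probe set of Trpm4 called, in rIAPP. Number 11, a dim one, had +1.52 and +1.14, at 7.31 and 6.72 in hIAPP, 6.32 and 6.93 in rIAPP, and 5.45 and 5.53 in control. Only 2 of its probe sets, numbers 8 and 10, had a mean at or above the exon-level median. Number 8 had −0.20 in hIAPP and −0.07 in rIAPP (SE 0.215). Number 10 was lower than control in rIAPP, at 11.48 and 11.46 in hIAPP, 11.29 and 11.01 in rIAPP, and 11.46 and 11.51 in control, a difference of −0.33 (SE 0.130). Single probe sets of Trpm4 lay on both sides of a gene-level difference near 0.

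Trpm7, the channel kinase, was bright and nearly level. Its gene-level values were 10.96 and 10.86 in hIAPP, 11.02 and 11.15 in rIAPP, and 10.95 and 10.92 in control. hIAPP overlapped control, and rIAPP lay above both. The differences were −0.03 in hIAPP minus control, +0.15 in rIAPP minus control and −0.17 in hIAPP minus rIAPP (SE 0.0626), and none was called. Of its 32 probe sets 31 were at or above the exon-level median. In rIAPP 16 were above control without overlap and 1 below, beside 27.7% and 22.4% of all probe sets, and none of the 32 was called in any contrast. The largest difference, at number 10, was +0.94 in hIAPP and +1.41 in rIAPP (SE 0.726) and rests on 1 array, since the values were 10.72 and 10.08 in hIAPP, 10.89 and 10.86 in rIAPP, and 8.33 and 10.60 in control. The lowest differences were −0.40 at number 28 in hIAPP (SE 0.166) and −0.55 at number 18 in rIAPP (SE 0.463), where the rIAPP arrays stood at 11.07 and 9.62. Among the brighter probe sets number 15 was lowest in hIAPP minus rIAPP, at −0.75 (SE 0.263), and number 18 highest, at 0.43.

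Trpc1, the partner subunit of the TRPC family, was level too. Its gene-level values were 10.47 and 10.57 in hIAPP, 10.62 and 10.64 in rIAPP, and 10.47 and 10.50 in control, so hIAPP overlapped control and rIAPP lay just above both. The differences were +0.04 and +0.15 against control, and −0.11 in hIAPP minus rIAPP (SE 0.0532), with no call. Its 14 probe sets ran between −0.22 and 0.27 in hIAPP minus control and between −0.21 and 0.38 in rIAPP minus control. In hIAPP 4 were above control and 3 below, beside 25.4% and 23.7% of all probe sets, and in rIAPP 7 were above and 1 below, beside 27.7% and 22.4%. Among brighter probe sets number 13 was highest in hIAPP, at 0.27 (SE 0.227), and number 12 lowest, at −0.22 (SE 0.0995), while in rIAPP number 4 was highest, at 0.38 (SE 0.181), and number 3 lowest, at −0.21 (SE 0.154). The SD of 0.160 in hIAPP and 0.168 in rIAPP was below the median gene's 0.247 and 0.258.

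Over all 155 probe sets of the members, calls came almost wholly from Trpm2, Trpc4 and Trpm5. In hIAPP minus control 21 probe sets were called higher, 18 of Trpm2 and 3 of Trpm5, where 0.842% of all 166557 probe sets were, and 10 lower, all of Trpc4, where 0.66% were. In rIAPP minus control 17 were called higher, against 0.397% of all, and 11 lower, against 0.424%. Those 17 were 11 of Trpm2, 5 of Trpm5 and 1 of Trpm4, and the 11 were of Trpc4. In hIAPP minus rIAPP 0 were called higher by limma, against 0.161% of all, where 40 had an unadjusted p under 0.05, and 4 lower, all of Trpm5, against 0.117%. The exon-level calls were not stable: with any 1 array left out, most or all of those among the members' probe sets were lost in each contrast. Few residual degrees of freedom remained in those fits, and why the calls were lost was not tested. Counted by arrays that did not overlap, 47 probe sets were above control in hIAPP, against 25.4% of all, and 39 below, against 23.7%. In rIAPP 66 were above control, against 27.7% of all, and 41 below, against 22.4%. In hIAPP minus rIAPP 56 were above, against 20.4% of all, and 42 below, against 23.3%. Again the choice of members used these contrasts, and nothing is read from these counts. Exon-level values come from the same 6 arrays as the gene-level ones and are no further replicates.

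**Figure D4:**
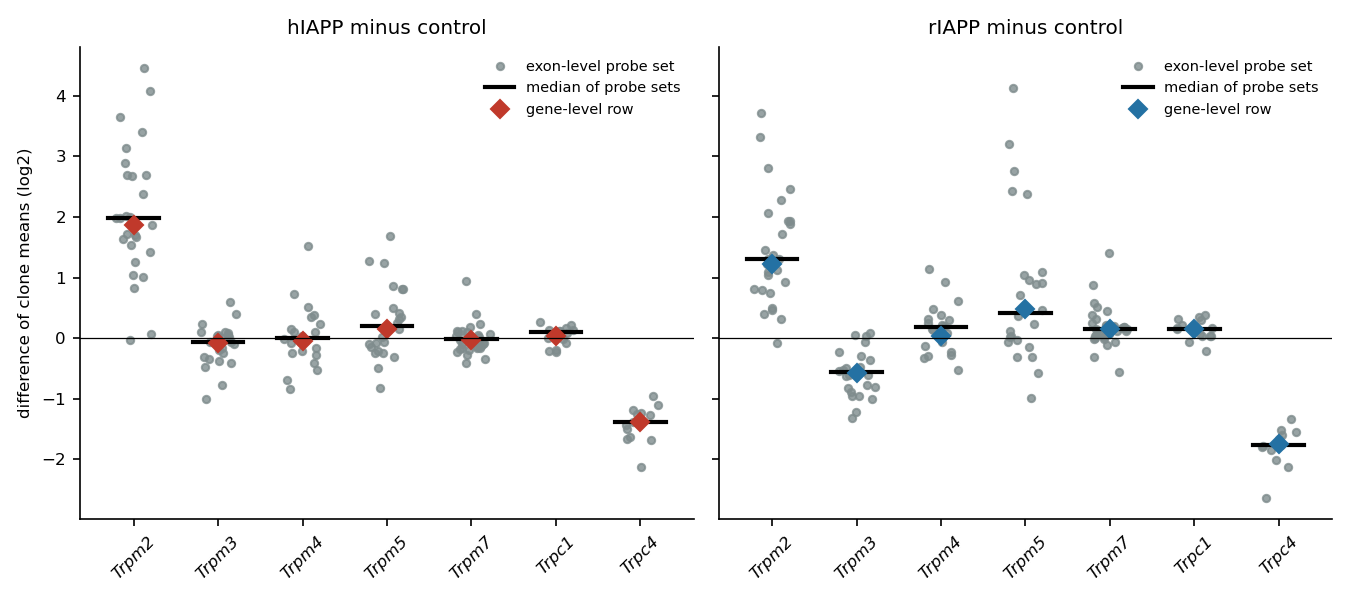
Difference of clone means (log2, vertical axis) in hIAPP minus control and rIAPP minus control for each channel gene: grey points are exon-level probe sets, bars their median and diamonds the gene-level value. Medians and gene-level values lie close together for all 7 genes, while the points spread from −0.02 to 4.45 for Trpm2 in hIAPP and from −0.98 to 4.13 for Trpm5 in rIAPP.

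Genes around the channels were taken from 5 lists of their pathways, with 104 of 115 listed genes measured. In hIAPP minus control 21 of them were called higher and 12 lower, or 20.2% and 11.5%, beside 10.1% and 8.93% of all genes. In rIAPP minus control 22 were called higher and 11 lower, or 21.2% and 10.6%, beside 8.7% and 7.3% of all genes. Between the transfected clones 7 were called higher in hIAPP and 13 lower, or 6.73% and 12.5%, beside 6.11% and 5.56%. The same shares of all genes stand beside the counts of each list. The lists were chosen with earlier results of these data known, and the shares of all genes take in dim genes. Whether the lists differ from other genes of like level was not tested. Of the totals, 33, 33 and 20, the second was 18 without control array a, 20 without control array b, 19 without rIAPP array a and 15 without rIAPP array b. The third total was 12 without hIAPP array a and 11 without rIAPP array a or b. Of 20 other measured TRP channel genes, 14 did not pass the test in hIAPP minus control and 14 did not in rIAPP minus control. In hIAPP 2 rose and 4 fell, with a median difference of −0.08 over the list and −0.01 over all genes. In rIAPP 5 rose and 1 fell, with a median of 0.06 over the list (limma, adjusted over all genes tested). Of the 20, 1 was higher and 6 lower in hIAPP than in rIAPP. Trpv1, the capsaicin receptor, had 10.25 and 10.29 in hIAPP, 10.71 and 10.74 in rIAPP, and 9.51 and 9.54 in control. It rose by 0.74 in hIAPP (limma adjusted p = 6.09e-05) and by 1.20 in rIAPP (limma adjusted p = 1.12e-05; SE 0.0473). Trpa1, the mustard-oil receptor, rose by 0.44 in hIAPP, where its mean was 7.28 against 6.83 in control (limma adjusted p = 0.000984), and by 0.23 in rIAPP (limma adjusted p = 0.0220). Mcoln3, a channel of endosomes and lysosomes, fell by 0.64 in hIAPP (limma adjusted p = 0.000181), beside −0.15 in rIAPP (limma adjusted p = 0.0924). Trpc6, a diacylglycerol-gated relative of Trpc4, rose by 0.40 in rIAPP (limma adjusted p = 0.00618), beside −0.22 in hIAPP (limma adjusted p = 0.0549), and was 0.62 lower in hIAPP than in rIAPP (hIAPP minus rIAPP −0.62, limma adjusted p = 0.00112). Of the list's named genes, Trpv1 had the largest difference from control in both clones.

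Of 31 measured genes that activate or regulate TRPC channels, 10 rose and 3 fell in hIAPP, with a median difference of 0.03, and 6 rose and 5 fell in rIAPP, also with a median of 0.03. Set against rIAPP, 4 were higher in hIAPP and 2 lower. Plch1, a phospholipase C of the eta class, had 6.30 and 6.17 in hIAPP, 8.77 and 8.82 in rIAPP, and 8.66 and 8.78 in control. It fell by 2.49 in hIAPP (SE 0.0666, limma adjusted p = 2.46e-06) and did not pass the test in rIAPP (+0.07, limma adjusted p = 0.507). Cav1, which encodes the caveolar scaffold protein caveolin-1, had 7.85 and 8.06 in hIAPP, 7.65 and 7.66 in rIAPP, and 6.61 and 6.22 in control. It rose by 1.54 in hIAPP (limma adjusted p = 0.000185) and by 1.24 in rIAPP (limma adjusted p = 0.000674; SE 0.122). Chrm3, the muscarinic receptor through which acetylcholine drives phospholipase C in beta cells, rose by 0.60 in hIAPP (limma adjusted p = 0.000175) and by 0.51 in rIAPP (limma adjusted p = 0.000483). The calcium-store genes Stim2, a sensor, and Saraf, a regulator of store-operated entry, rose in both clones, Stim2 by 0.47 and 0.24 and Saraf by 0.50 and 0.33 (limma adjusted p = 0.00229, 0.0427, 0.00171 and 0.0139). Homer2, a scaffold protein, rose by 0.46 in hIAPP and by 0.59 in rIAPP (limma adjusted p = 0.00617 and 0.00288). Plcb3, a phospholipase C of the beta class, rose by 0.54 in rIAPP (limma adjusted p = 0.00114), beside +0.19 in hIAPP (limma adjusted p = 0.0625). Itpr2, an inositol trisphosphate receptor, was 0.54 higher and Plce1 0.48 higher in hIAPP than in rIAPP (limma adjusted p = 0.000782 and 0.00142), and both rose in hIAPP, by 0.49 and 0.41 (limma adjusted p = 0.000686 and 0.00180).

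Around Trpm5, 21 genes of the taste cascade and of beta-cell excitation were measured. In hIAPP 3 rose and 1 fell, and in rIAPP 4 rose and 2 fell, with medians of −0.02 and 0.0014. Set against rIAPP, hIAPP had 2 higher and 2 lower. Gnat3, which encodes the taste G protein gustducin upstream of TRPM5, had 11.38 and 11.31 in hIAPP, 6.49 and 6.23 in rIAPP, and 12.30 and 12.36 in control. It fell by 0.98 in hIAPP (limma adjusted p = 0.000257) and by 5.97 in rIAPP (limma adjusted p = 1.70e-07; SE 0.0839), in the clone where the first 5 Trpm5 probe sets were highest. The incretin receptor genes Glp1r and Gipr rose in both clones, Glp1r by 0.44 and 0.45 and Gipr by 0.27 and 0.50 (limma adjusted p = 0.000704, 0.000807, 0.0134 and 0.00114). Prkca, a protein kinase C gene, fell by 0.32 in rIAPP (limma adjusted p = 0.00466), was 0.20 higher in hIAPP than in rIAPP, and Gipr was 0.23 lower (hIAPP minus rIAPP −0.23; limma adjusted p = 0.0342 and 0.0361).

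Around Trpm2, 18 genes that make or remove ADP-ribose and NAD were measured, and in each transfected clone 2 rose and 2 fell, with medians of 0.01 in both. Nampt, the enzyme that recycles nicotinamide to NAD, rose by 0.27 in hIAPP and by 0.22 in rIAPP, and Parg, which frees ADP-ribose from its polymer, by 0.32 and 0.19 (limma adjusted p = 0.0101, 0.0267, 0.00540 and 0.0481). Nudt5, an ADP-ribose hydrolase, fell by 0.33 in hIAPP and by 0.20 in rIAPP (limma adjusted p = 0.00461 and 0.0395), and Nmnat2, an NAD synthesis enzyme, fell by 0.22 in hIAPP and by 0.37 in rIAPP (limma adjusted p = 0.0433 and 0.00685). In hIAPP minus rIAPP 0 of the 18 passed limma's test, where 7 had an unadjusted p under 0.05. Around Trpm7, 16 magnesium transport genes were measured, of which 4 rose and 2 fell in hIAPP and 5 rose and 1 fell in rIAPP, with medians of 0.11 in both. Nipal3 rose by 0.59 and 0.49, Magt1 by 0.50 and 0.46, and Cnnm2 by 0.38 and 0.47, in hIAPP and rIAPP in that order (limma adjusted p = 0.000852, 0.00285, 0.00103, 0.00204, 0.00195 and 0.000983). Cnnm1 fell by 0.41 in hIAPP and by 0.37 in rIAPP (limma adjusted p = 0.00109 and 0.00228). Lower in hIAPP than in rIAPP were 3 genes, Slc41a1 (−0.45), Arl15 (−0.37) and Cnnm4 (−0.22; limma adjusted p = 0.0237, 0.00487 and 0.0212).

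**Figure D5:**
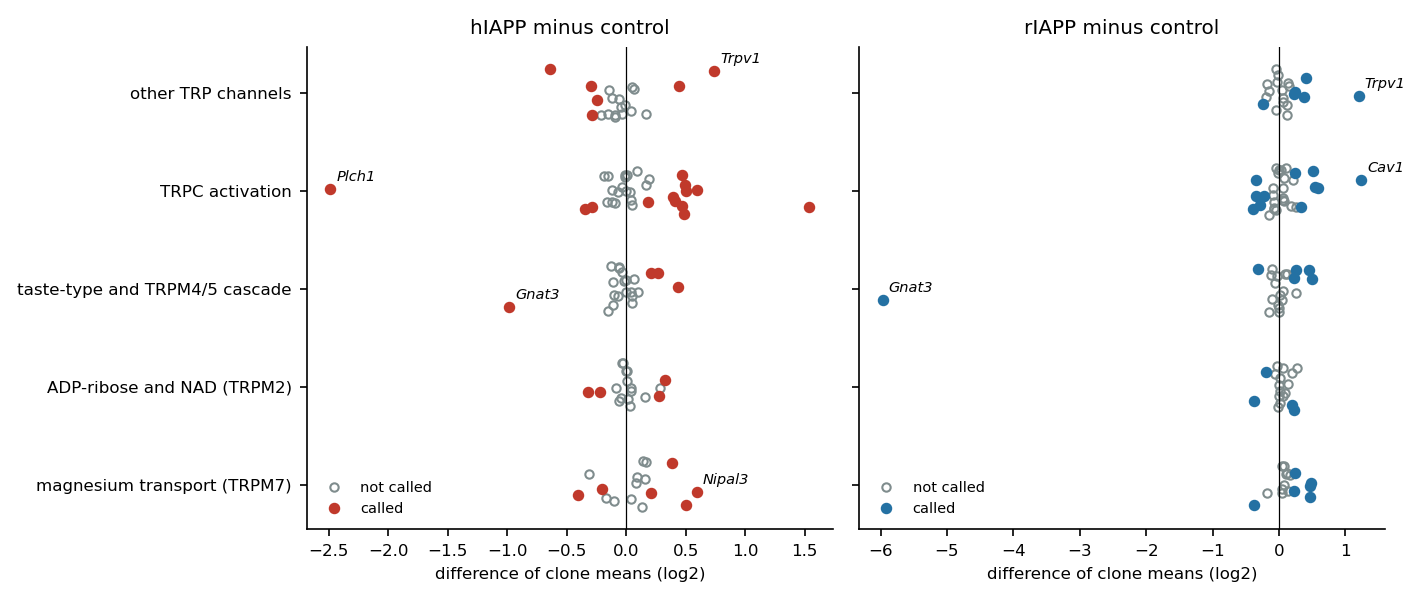
Difference of clone means (log2, horizontal axis; the panels differ in scale) of each measured gene in the 5 pathway lists, as hIAPP minus control and rIAPP minus control; filled points passed limma's test and open points did not. Most points lie near 0, while Plch1 at −2.49 and Cav1 at 1.54 stand out in hIAPP and Gnat3 at −5.97, Trpv1 at 1.20 and Cav1 at 1.24 in rIAPP.

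For the 3 members whose clone means spanned at least 0.5 at gene level, the genes nearest in pattern over the 6 arrays were taken, by Euclidean distance between values centred on each gene's mean. Trpm5, with a span of 0.48, was just short of this. Nearest to Trpm2 were Klk1b3, a kallikrein-type peptidase, at a distance of 0.218, Cxcl11, a chemokine, at 0.255, and Tff3, a trefoil peptide, at 0.386. Nearest to Trpc4 were Elmod1 at 0.254, Adcyap1r1, the receptor of the peptide PACAP, at 0.347, and Actn2, an actinin, at 0.381. Elmod1 differed by −1.57 in hIAPP and −1.97 in rIAPP, and Adcyap1r1 by −1.12 and −1.50. Nearest to Trpm3 were Sil1, a cochaperone of the endoplasmic reticulum, at 0.0807, Espn, an actin-bundling protein, at 0.107, and Tmem252 at 0.115. The 6 arrays come from 3 clones, so a likeness is a description of 3 clone means and their spread.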

How the data were processed

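RNA of 3 INS1E clones was measured on 6 one-colour Affymetrix arrays, each deposited at gene level (36685 transcript clusters) and exon level (220231 probe sets). The values are log2 values that the authors deposited after RMA, which subtracts background, equalises the arrays' quantiles and combines probes, in Affymetrix Expression Console, per the submitters' processing notes. Software versions and the array's build were not given in the sources used here. All value columns were mapped to samples by their labels. The number of arrays limits the precision.

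Transcript clusters with 1 symbol in the platform annotation (18511, against 575 with several and 17599 with none) were kept, taking the brightest per symbol (18166 genes), as were the 166557 exon-level probe sets with a single symbol. limma 3.58.1 in R 4.3.3 fitted clone means to all 6 arrays, which share 1 spread, without a filter on dim genes, with Benjamini-Hochberg adjustment over all features of a level. Calls were made at an adjusted p under 0.05. The procedure was tested on simulated data. The members and gene lists were chosen with earlier results of these data known, and no p-value is adjusted over a list.

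Named were all 7 members, Gnat3, up to 3 called genes per pathway list and contrast by size, the 3 genes nearest in pattern to members spanning at least 0.5 (among genes at or above the gene-level median), and in each member and contrast the probe sets with the largest and smallest difference among those at or above the exon-level median. Stim2, Saraf, Mir204, Gda, Mafa, Nkx6-1, Slc30a8, Slc2a2, the neighbouring genes, the split of the Trpm5 and Trpm2 probe sets and the other probe sets described were named after their values were seen. Alternatives covered the intensity trend, a filter on dim genes, all transcript clusters, median centring, exon-level medians, a block for the letter and leaving out each array.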

Additional observations from a re-analysis of the deposited data

Results flagged for a closer look

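Among the other TRP channel genes, 2 passed limma's test against control in opposite directions in the transfected clones. Pkd2, which encodes the calcium-permeable channel polycystin-2, had 9.92 and 9.96 in hIAPP, 10.47 and 10.47 in rIAPP, and 10.23 and 10.23 in control. It fell by 0.29 in hIAPP and rose by 0.24 in rIAPP (limma adjusted p = 0.00506 and 0.0133), and the difference between the clones, hIAPP minus rIAPP, was −0.53 (SE 0.0465, limma adjusted p = 0.000534). Trpv3, a warmth-sensitive channel, had 9.07 and 9.17 in hIAPP, 9.71 and 9.88 in rIAPP, and 9.45 and 9.38 in control. It fell by 0.30 in hIAPP and rose by 0.37 in rIAPP (limma adjusted p = 0.0250 and 0.0129), with hIAPP minus rIAPP at −0.67 (SE 0.0711, limma adjusted p = 0.00122). Both comparisons against control use the same control arrays, while the comparison between the clones does not use them. With 2 arrays per clone, no search for single outlying arrays was made.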

How the results depend on the processing

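Arrays with the same letter did not deviate together in the values after RMA (r of a minus b between clones over all genes −0.04, 0.00064 and 0.00038). Such values cannot show whether equal letters shared a batch, since RMA equalises the arrays. Alternatives were run for single genes on the 7 members only: none of their called differences changed sign, while differences of Trpm4, Trpm7 and Trpc1 that were not called did under some. Calls among the members were the same under median centring, and with the letter as a replicate block (2 and 4 against control in hIAPP and rIAPP, and 4 in hIAPP minus rIAPP); the block called 3118, 2567 and 1802 genes, but only 6, 0 and 0 of the members' probe sets, against 31, 28 and 4 without it. The members were chosen with these contrasts known, so their calls describe the settings and support nothing. Trpm5's call in hIAPP minus rIAPP was lost without hIAPP array a, without hIAPP array b, without rIAPP array a and with all transcript clusters tested. Trpm5 and Trpm4 are too dim for the filter on dim genes. Trpc1 was called in rIAPP and Trpm7 in hIAPP minus rIAPP with an intensity trend or that filter. With genes summarised as medians of their exon-level probe sets, Trpm3's calls and Trpc4's call in hIAPP minus rIAPP were lost, which left 2 members called there; 1218, 906 and 499 genes and 17, 13 and 7 pathway genes were called, against 3462, 2908 and 2120 and 33, 33 and 20. Testing all transcript clusters gave 1659 and 1260 genes and 16 and 11 pathway genes in rIAPP minus control and hIAPP minus rIAPP. Leaving out each array in turn gave 2001 to 2874, 1224 to 2867 and 923 to 1780 genes in the 3 contrasts, 15 to 31 and 11 to 16 pathway genes in the last 2, and 0 to 7, 0 and 0 probe sets of the members, where few residual degrees of freedom are left. Without an array the lone sample of its clone is assumed to vary like the others. In hIAPP minus rIAPP 13 probe sets were called among brighter ones and 10 with an intensity trend. Of 246 member differences under alternatives, 215 moved by less than the SD between arrays and 31 by more. Many of the 215 could not move, so their number is no measure of stability. The intensity trend, the filter on dim genes, the test of all transcript clusters and the replicate block leave a difference of clone means as it is. So does leaving out an array of the clone that is not in the contrast. A mean over several transcript clusters per symbol was not run, since each member has 1. With 2 arrays per clone the precision is limited, and signal over background was not analysed here.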

Other observations

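The 10 measured genes nearest to each channel gene, 5 on each side in GRCr8 order, were looked at after the members' values were known. The widest difference among them was that of Gda, near Trpm3, which encodes guanine deaminase and had 10.84 and 10.76 in hIAPP, 8.21 and 8.21 in rIAPP, and 8.40 and 8.24 in control. It rose by 2.47 in hIAPP (SE 0.0645, limma adjusted p = 2.46e-06) and did not pass the test in rIAPP (−0.11, limma adjusted p = 0.281). The median over the neighbours of Trpm2 was −0.02 in hIAPP minus control and −0.06 in rIAPP minus control, and over those of Trpc4 0.06 and 0.08. Next to Trpm5 lies Kcnq1, which encodes a voltage-gated potassium channel. Kcnq1 had 10.63 and 10.72 in hIAPP, 9.72 and 9.54 in rIAPP, and 8.79 and 8.68 in control. It rose by 1.94 in hIAPP and by 0.89 in rIAPP (SE 0.0748, limma adjusted p = 7.36e-06 and 0.000309), and the clone with the higher level was hIAPP, whereas Trpm5 was higher in rIAPP. The neighbour of Trpc4, Postn, which encodes the matrix protein periostin, averaged 8.29 in hIAPP, 8.16 in rIAPP and 7.30 in control, and rose by 0.99 and 0.86 (limma adjusted p = 0.000211 and 0.000532) where Trpc4 had −1.38 and −1.75.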
